A study of Mus musculus with 12 samples.

Results

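The enzymes that make phosphatidylcholine and phosphatidylethanolamine, the main phospholipids of cell membranes, were followed in the ileum of mouse pups whose dams had or had not been stressed in pregnancy. The set holds 8 genes of the 35275 in the deposited count table: Chka, Chkb, Pcyt1a, Pcyt2, Etnk1, Cept1, Chpt1 and Pemt, found by their symbols, each with 1 row. The set was chosen by a measured value: the fold change of Chka between stressed and control males, which pointed to this gene, after which the enzymes of the same routes were added. The male values are therefore given as a description, and tests are given only for the females and for the comparison of the sexes.

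The 12 libraries of total RNA came from C57BL/6 mouse pups on postnatal day 14, 1 male and 1 female from each of 6 dams. During gestation 3 dams spent 2 h daily in a restraint tube, beginning on gestational day 7 and ending on day 19, and 3 control dams had stayed undisturbed in their home cages, which gave control females, stressed females, control males and stressed males with 3 libraries each. The word stressed refers to the dam, and the pups themselves received no treatment that the labels name. The design asks how ileal transcripts of offspring differ with restraint of the dam, in each sex. The labels name no sorting of cells, so each library mixes the cell types of the ileum, and fewer cells of a type and less RNA per cell cannot be told apart.

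Most phosphatidylcholine is made by the CDP-choline route. A choline kinase phosphorylates choline, a cytidylyl transferase turns phosphocholine into CDP-choline, and a phosphotransferase joins it to diacylglycerol. The CDP-ethanolamine route makes phosphatidylethanolamine by the same kinds of step, and in liver the methyltransferase PEMT can convert phosphatidylethanolamine into phosphatidylcholine. In the small intestine phosphatidylcholine also coats the chylomicrons that carry absorbed fat, which a suckling pup takes from milk.

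Library totals ran from 16423523 to 22975526 counted reads, and all 6 male libraries were below all 6 female libraries. The epithelial markers Epcam, Vil1 and Cdh1 were high in all 12 libraries, with Epcam at 1227 to 1890 CPM (counts relative to library size, with TMM scaling). Among the markers listed for the distal small intestine, the bile acid transporter gene Slc10a2 was low everywhere, at 0.195 to 6.43 CPM. Slc51a, a subunit of a bile acid export transporter from the same list, ran from 256 to 547 CPM. Both pups of control dam 3 stood apart: Fabp1, a fatty acid binding protein of the upper small intestine, was at 1404 CPM in the male and 168 CPM in the female of that dam, and between 0.151 and 0.638 CPM elsewhere. The ileal bile acid binding protein Fabp6 was at 0.716 CPM in its male pup, the lowest of the 12. Slc10a2 was also lowest in that library, at 0.195 CPM. The other distal markers were not low in the pups of control dam 3. Slc51a was at 372 CPM in the male and 519 CPM in the female. Slc51b, from the same list, was at 15.16 CPM in the male and highest of all in the female, at 21.03 CPM. Fabp6 in the female was at 60.98 CPM, within the range of the other libraries. In 3 male libraries, stressed male 1, stressed male 3 and control male 1, the noncoding RNA Yam1 took 1.39%, 4.13% and 1.00% of all reads, against 0.171% to 0.5% in the others. For some values of members that moved when these libraries were left out, the value without them is given beside it.

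The sequences just before the transcription starts of Chka and Pcyt1a are shown because Chka is the gene around which the set was formed and Pcyt1a encodes the rate-limiting enzyme of its route. They are the 250 bases before the start in RefSeq on GRCm38.p6, plus strand, at chr19:3851523-3851772 for Chka and chr16:32430671-32430920 for the first start of Pcyt1a. Capitals mark matches, on either strand, to the GC box GGGCGG and to the sterol regulatory element TCACNCCAC.
Chka: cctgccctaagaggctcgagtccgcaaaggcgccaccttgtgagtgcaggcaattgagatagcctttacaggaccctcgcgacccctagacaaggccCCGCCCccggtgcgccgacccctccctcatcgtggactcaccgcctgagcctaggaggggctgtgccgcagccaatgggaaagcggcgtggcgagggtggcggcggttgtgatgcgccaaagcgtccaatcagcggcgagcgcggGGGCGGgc
Pcyt1a: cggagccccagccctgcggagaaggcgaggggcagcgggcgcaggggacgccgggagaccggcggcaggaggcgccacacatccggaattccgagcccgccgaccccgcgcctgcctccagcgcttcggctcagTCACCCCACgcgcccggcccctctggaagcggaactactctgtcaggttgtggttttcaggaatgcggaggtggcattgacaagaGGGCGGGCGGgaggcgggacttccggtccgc
The Chka window holds 2 GC boxes. That of Pcyt1a holds 2 GC boxes that overlap each other, and 1 sterol regulatory element. RefSeq starts were found for 7 of the 8 genes, in 12 windows, and 8 of these windows, in 6 genes, held a GC box, against 32.7% of all 32851 windows. These 8 are not independent: 2 windows of Cept1 overlap and share a GC box, as do 2 of Pcyt1a. The bases G and C made up 52.4% to 75.6% of the 8 windows, against a median of 52.4% over all windows. Whether the members hold more GC boxes than other windows of like content was not tested. The sterol regulatory element was in 2 windows, both of Pcyt1a and overlapping, against 1.05% of all windows. Neither the E-box CACGTG nor the AP-1 motif TGANTCA was found in any of the 12 windows, against 6.02% and 6.75% of all. A match describes letters only, and says nothing of a factor's binding.

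Per gene length the phosphotransferase Chpt1, which joins CDP-choline to diacylglycerol, had the highest level, with a mean of 137 ± 11.1 FPKM (reads scaled by gene length and library size; SD over all 12 libraries). Pcyt1a, the phosphocholine cytidylyl transferase, followed at 91.6 ± 24.9 FPKM and Pcyt2, the phosphoethanolamine cytidylyl transferase, at 83.5 ± 8.60 FPKM. The kinase Chka stood at 25.1 ± 5.78 FPKM and the ethanolamine kinase Etnk1 at 18.4 ± 1.24 FPKM. Cept1, a phosphotransferase for both routes, stood at 14.6 ± 4.08 FPKM, the kinase Chkb at 5.06 ± 1.68 FPKM and the methyltransferase Pemt at 1.41 ± 0.578 FPKM. Chpt1 lay above Pcyt1a in 11 of 12 libraries, but Pcyt1a above Pcyt2 in only 6 of 12. Chka exceeded Etnk1 in 10 of 12 libraries and Etnk1 exceeded Cept1 in 10 of 12. By the deposited lengths every library had Pcyt2 above Chka, Cept1 above Chkb and Chkb above Pemt. By these lengths Chka was 3.19 to 9.95 times as high as Chkb, with a median of 4.80 over the 12 libraries. The order depends on the lengths, as the deposited ones differ from the exonic bases of GENCODE M21, most for Chka (4652 against 12024). Divided by the GENCODE bases, a choice made after the data were seen, the order was Chpt1, Pcyt1a, Pcyt2, Cept1, Etnk1, Chka, Chkb and Pemt. The reads were still those counted on the deposited gene models, whose ends differ from GENCODE for Chkb and Etnk1, so these levels are approximate. Cept1 then had a mean level of 13.2 ± 3.68, Etnk1 of 9.78 ± 0.659, Chka of 9.72 ± 2.24 and Chkb of 7.10 ± 2.36, and Chka was 0.880 to 2.74 times as high as Chkb. Chka, Etnk1 and Cept1 therefore have no settled order. The genes also differed in how steady they were: the coefficient of variation of CPM over the 12 libraries was 7.02% for Etnk1, 9.27% for Pcyt2 and 10.3% for Chpt1, but 25.6% for Chka, 31.9% for Chkb, 33.7% for Pcyt1a, 33.9% for Cept1 and 38.7% for Pemt.

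**Figure D1:**
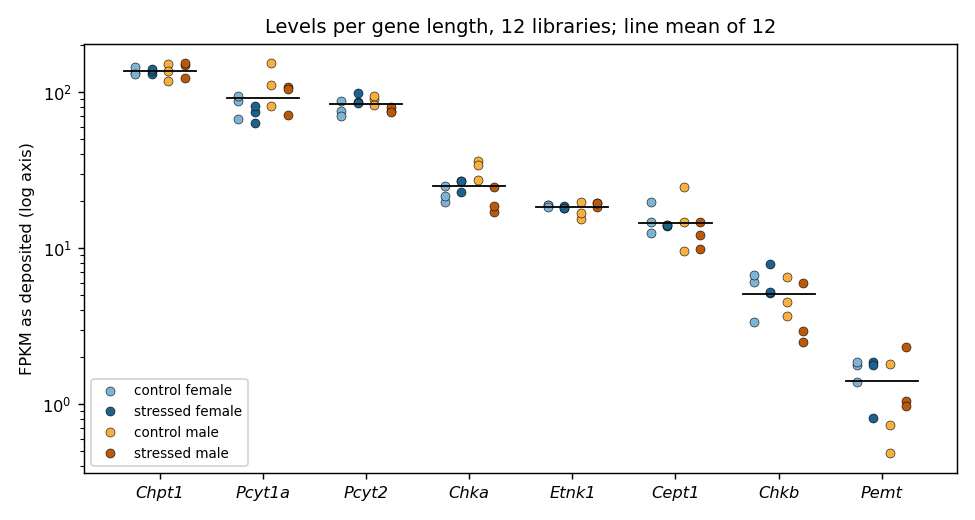
FPKM as deposited (log axis) of the 8 genes in each of 12 libraries, coloured by group, with a line at the mean of 12. Chpt1, Pcyt1a and Pcyt2 lie highest and Pemt, at 0.483 to 2.31 FPKM, lowest.

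Several of these rows share sequence with neighbours. In the deposited table Chkb spans chromosome 15 from 89416405 to 89429908 (GRCm38, minus strand), which takes in the whole of Cpt1b, a carnitine palmitoyltransferase. GENCODE M21 places Chkb at 89426360 to 89429908 with 3061 exonic bases, while the deposited gene length was 4296. The Cpt1b row held 14 reads over all 12 libraries, and how reads of that stretch were assigned was not tested. In GENCODE M21 Chkb also shares 1552 of its exonic bases (50.7%) with Gm44502, a gene model on the same strand, and 320 (10.5%) with C730034F03Rik on the opposite strand, so the counts of Chkb are uncertain. Pcyt1a (chromosome 16, 32430921 to 32475070, plus strand) shares 567 exonic bases with Slc51a on the opposite strand. Cept1 (chromosome 3, 106502260 to 106547802, minus strand) shares 771 with Dennd2d, and Chpt1 shares 660 with Sycp3, both on the opposite strand. The Sycp3 row held 2521 reads over all 12 libraries, and the part of this overlap in the counts of Chpt1 was not tested. The sources used here do not state whether counting used strand. Slc51a, a subunit of a bile acid export transporter, stood at 372 CPM in control male 3, where Pcyt1a was highest, and was itself highest in stressed male 2, at 547 CPM. Among females both were highest in control female 3, where Slc51a stood at 519 CPM. The part of this overlap in the values of Pcyt1a was not tested. Dennd2d was highest in control male 3, at 29.8 CPM, the library with the most Cept1, and ran from 9.77 to 22.3 CPM in the others.

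In the males, the comparison that led to the set, the 2 genes whose stressed and control libraries did not overlap were Chka and Pcyt2. Chka (chromosome 19, 3851773 to 3894369, plus strand, ENSMUSG00000024843) stood at 169, 124 and 180.1 CPM in control males 1, 2 and 3 and at 80.3, 112 and 90.0 CPM in stressed males 1, 2 and 3. All stressed males lay below all control males, with means of 94.0 ± 16.1 against 158 ± 29.6 CPM (SD, n = 3 each). The log2 fold change was -0.75 ± 0.17 (SE).

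Pcyt2 (chromosome 11, 120610087 to 120617936, minus strand, ENSMUSG00000025137), which forms CDP-ethanolamine, stood at 169, 175 and 178 CPM in control males and at 143, 147 and 146 CPM in stressed males. Its groups were separate as well and narrow, at 174 ± 4.51 against 145 ± 2.23 CPM (SD, n = 3 each), and its log2 fold change was -0.26 ± 0.11. Over all genes tested, 2.95% had every stressed male below every control male and 2.72% had them above. By edgeR's adjusted p, 0 of 16102 genes passed in the males (percent called 0), so none of the 8 did. Unadjusted, 1028 genes had a p under 0.05 with edgeR and 1136 with DESeq2. Nothing is read from the separation of Chka and Pcyt2, since it belongs to the comparison that formed the set.

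The libraries that stood apart bear on these 2 genes unequally. For Chka, the Yam1-rich control male 1 was the second highest male library and the Yam1-rich stressed males 1 and 3 were the lowest. Without those 3 libraries, left out after the data were seen, its log2 fold change was -0.44 ± 0.24, with 1 stressed male left that is assumed to vary like the other groups. That of Pcyt2 was -0.26 ± 0.16. Without both pups of control dam 3 the values were -0.65 ± 0.19 for Chka and -0.25 ± 0.12 for Pcyt2. Beside Chka, the summed level of 5 endothelial markers, Cldn5 among them, was also lower in stressed males. It ran from 212 to 252 CPM against 261 to 319 CPM in control males, with none of the markers near 0. Without control dam 3 the control males reached 279 CPM. This was the only marker list with separate male groups, and its part in the result was not tested. The summed levels of the epithelial, smooth muscle, neuronal and glial, leukocyte, and fibroblast and mesothelial markers overlapped between the male groups. Those of the distal and proximal small intestine, exocrine pancreas and hepatocyte markers overlapped as well. The 8 epithelial markers ran from 5117 to 5702 CPM in stressed and from 4214 to 7624 CPM in control males.

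The other 6 genes overlapped between stressed and control males. Among the kinases, Chkb stood at 15.7, 27.6 and 22.3 CPM in control males 1, 2 and 3 and at 12.8, 24.9 and 11.2 CPM in stressed males, a log2 fold change of -0.42 ± 0.35. The 3 lowest of these values belong to the 3 Yam1-rich libraries, and without them the log2 fold change was -0.00 ± 0.41. Etnk1 ran from 98.9 to 124 CPM in control and from 120 to 131 CPM in stressed males, a log2 fold change of 0.11 ± 0.12. Without control male 1 that of Etnk1 was 0.01, and the lowest value of any alternative was -0.02. The rate-limiting Pcyt1a stood at 552, 396 and 864 CPM in control males and 538, 346 and 543 CPM in stressed males, a log2 fold change of -0.34 ± 0.28. This value depends on the libraries used: without control male 3 it was 0.00, and without the Yam1-rich libraries -0.86 ± 0.44.

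Cept1 stood at 27.2, 40.8 and 78.8 CPM in control males 1, 2 and 3 and at 34.6, 40.6 and 29.2 CPM in stressed males, a log2 fold change of -0.49 ± 0.32. Control male 3 stood far above the other males, and without it the value was 0.03. Chpt1 stood between 573 and 761 CPM in control and between 584 and 775 CPM in stressed males, with a log2 fold change of 0.03 ± 0.16, which was -0.35 ± 0.17 without the Yam1-rich libraries. Pemt, with 9 to 46 reads per library, was too low for a comparison of weight: it stood at 0.486 to 1.78 CPM in control and 1.02 to 2.26 CPM in stressed males.

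**Figure D2:**
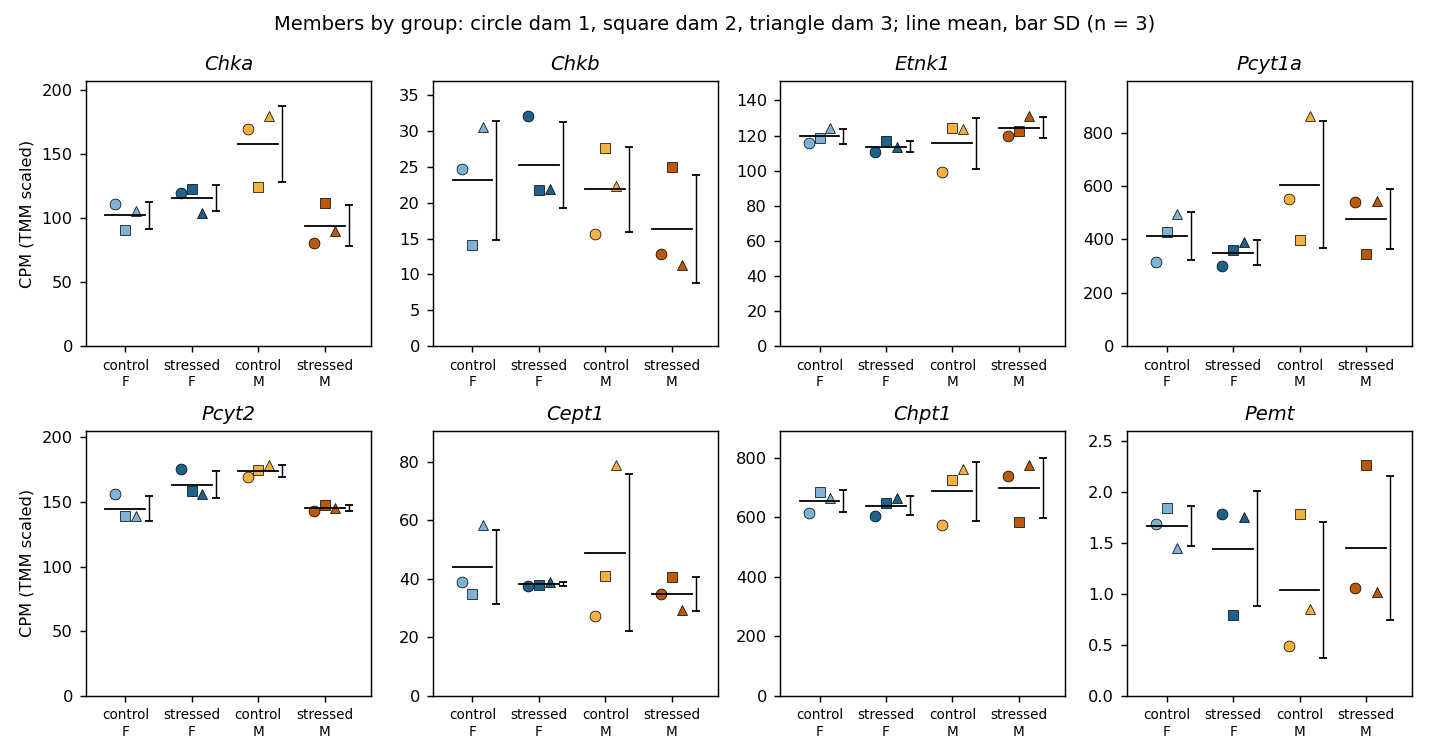
CPM (TMM scaled) of each gene by group, 1 symbol per library (circle dam 1, square dam 2, triangle dam 3), with the mean as a line and the SD as a bar (n = 3). In Chka and Pcyt2 the stressed males lie below the control males, and in Cept1 the triangles of control dam 3 lie highest in both sexes.

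The females give libraries that were not used to form the set. There the mean of Chka was higher, not lower, in stressed pups, without passing the test. It stood at 111, 90.3 and 106 CPM in control females 1, 2 and 3 and at 120, 123 and 104 CPM in stressed females, which overlap. The log2 fold change was 0.18 ± 0.17 (SE; edgeR adjusted p = 1, 3 against 3 libraries).

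Pcyt2 was likewise not lower in stressed females, at 176, 158.3 and 156.5 CPM against 155.9, 139 and 139 CPM in control females. The groups only just failed to touch, with every stressed female above every control female, which 3.07% of all genes tested showed. No member had every stressed female below every control female, as 2.49% of genes did. Its log2 fold change of 0.18 ± 0.11 did not pass (edgeR adjusted p = 1; unadjusted p = 0.129), and in FPKM as deposited the groups overlapped. The other members had log2 fold changes of 0.13 ± 0.35 (Chkb), -0.07 ± 0.12 (Etnk1), -0.23 ± 0.28 (Pcyt1a), -0.21 ± 0.32 (Cept1), -0.03 ± 0.16 (Chpt1) and -0.20 ± 0.47 (Pemt), each with an adjusted p = 1 by edgeR.

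Among the members that overlapped in females, Pcyt1a stood at 316, 426 and 494 CPM in control females 1, 2 and 3 and at 299, 360 and 391 CPM in stressed females. Cept1 was even among stressed females, at 37.5, 37.9 and 38.8 CPM, and stood at 38.9, 34.7 and 58.5 CPM in control females. Without both pups of control dam 3 its log2 fold change turned to 0.05 ± 0.19. Chkb ran from 21.7 to 32.2 CPM in stressed and from 14.2 to 30.5 CPM in control females. Without control female 3 the log2 fold change was -0.08 for Pcyt1a and 0.38 for Chkb. Without control female 2 that of Chkb was -0.15. Etnk1 stood at 111 to 117 CPM against 116 to 124 CPM, and Chpt1 at 603 to 666 CPM against 613 to 685 CPM.

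In all, 0 of the 8 members passed in females and 0 of 16102 genes did (percent called 0). Unadjusted, 0 members and 48 genes had a p under 0.05 with edgeR, and 49 genes with DESeq2. Of the members 5 lay below 0 and 3 above, with a median log2 fold change of -0.05, against 51.5% below 0 and a median of -0.00 over all genes tested. The precision differed by gene: the standard error on the log2 scale was 0.11 to 0.17 for Pcyt2, Etnk1, Chpt1 and Chka and 0.28 to 0.47 for Pcyt1a, Cept1, Chkb and Pemt. In the authors' deposited table the log2 fold changes of Chka were -0.62 in males and 0.13 in females, and those of Pcyt2 were -0.26 and 0.14. Of its genes with an adjusted p, 0 of 22920 in males and 0 of 23219 in females were below 0.05 in the authors' deposited table.

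**Figure D3:**
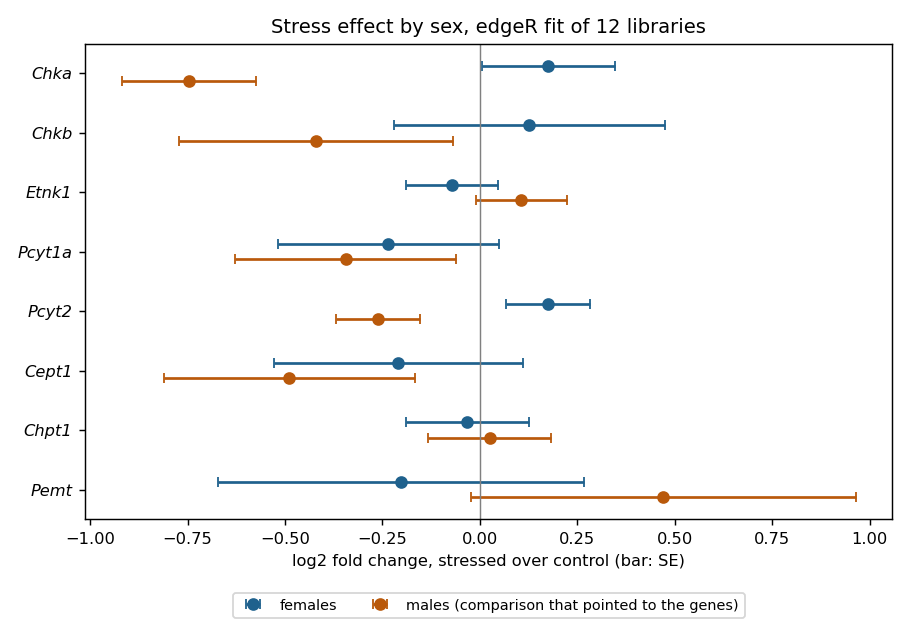
log2 fold change of stressed over control pups for each gene, with SE, in females and in males, from 1 edgeR fit of 12 libraries. The points of Chka and Pcyt2 lie below 0 in males (-0.75 and -0.26) and above 0 in females (0.18 each).

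Comparing each male pup with its sister shows the same values within litters. In the 3 control litters Chka was higher in the male, by 0.61, 0.46 and 0.77 on the log2 scale in dams 1, 2 and 3. In the 3 stressed litters it was lower in the male, with log2 differences of -0.57, -0.14 and -0.21. Pcyt2 had the same order of signs, with 0.12, 0.33 and 0.36 in control litters and -0.30, -0.10 and -0.10 in stressed litters.

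No other member changed sign in this way: in each of the other 6 the signs were mixed within the control litters, the stressed litters or both. The pattern of Chka and Pcyt2 held with TMM scaling, with median-ratio size factors and in FPKM as deposited. Over all genes tested, 0.72% had it, and 0.77% had the opposite one. No member had the male on the same side of its sister in all 6 litters, as 1.98% of genes did below and 1.84% above. The stress effect of males minus that of females was -0.92 ± 0.24 (SE, log2) for Chka and -0.44 ± 0.15 for Pcyt2. Among the other members it ran from -0.55 ± 0.49 for Chkb to 0.67 ± 0.68 for Pemt, neither of them steady: leaving out 1 library at a time gave -0.99 to -0.30 for Chkb and 0.19 to 1.34 for Pemt. Without the Yam1-rich libraries the differences of Chkb, Pcyt1a and Chpt1 were -0.13 ± 0.50, -0.63 ± 0.52 and -0.31 ± 0.20, against -0.55, -0.11 and 0.06 with all libraries. That of Cept1 was -0.28 ± 0.45, and -0.01 ± 0.26 without both pups of control dam 3. By edgeR's adjusted p, 0 of 16102 genes passed for this difference (percent called 0), with 346 genes at an unadjusted p under 0.05 and 395 with DESeq2. The 346 became 138 without stressed female 1 and 2138 without stressed male 2, still with 0 past the adjusted threshold. These differences contain the male comparison that formed the set and are given without a test. Without the 3 Yam1-rich libraries the difference was -0.62 ± 0.29 for Chka and -0.44 ± 0.19 for Pcyt2, and without both pups of control dam 3 it was -0.84 ± 0.27 and -0.39 ± 0.17.

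**Figure D4:**
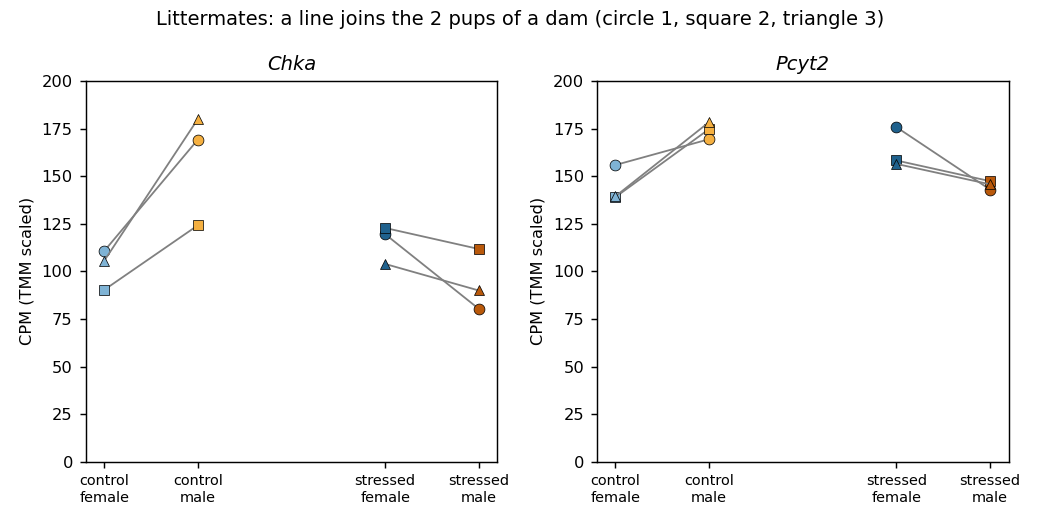
CPM (TMM scaled) of Chka and Pcyt2 in littermates, a line joining the female and the male pup of each dam. In both genes all 3 lines rise from female to male in control litters and all 3 fall in stressed litters.

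With littermates summed, so that the dam was the unit, the opposite signs of the sexes offset each other. Chka had a log2 fold change of -0.27 ± 0.13 (SE, 3 against 3 dams) and Pcyt2 of -0.04 ± 0.08. Cept1 had -0.34 ± 0.24, which was 0.02 without control dam 3, and Pcyt1a had -0.29 ± 0.19, which was -0.04 without that dam. The values of Chkb, Etnk1, Chpt1 and Pemt lay between -0.11 and 0.05. Since each sum contains a male library these values are a description. By edgeR's adjusted p, 0 of 16749 genes passed over dams (percent called 0), with 228 at an unadjusted p under 0.05 and 229 with DESeq2.

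Male and female pups were compared over both kinds of dam, 6 libraries against 6. No member passed. Pcyt1a, which catalyses the rate-limiting step, came closest: it ran from 346 to 864 CPM in males, with a median between 538 and 543 CPM, and from 299 to 494 CPM in females. Its log2 difference, male minus female, was 0.50 ± 0.20 (SE), with edgeR adjusted p = 0.411 and unadjusted p = 0.0299. An unadjusted p under 0.05 with edgeR was found for 1 of the 8 members and for 1929 of all 16102 genes tested, so it was common. For Pcyt1a the male was higher than its sister in 4 of 6 litters. The difference was 0.30 ± 0.25 without the 3 Yam1-rich libraries, which are all male (adjusted p = 0.9998 with edgeR), and 0.33 ± 0.17 without control male 3. The ranges of the sexes overlapped, and the dams numbered 2 were the exceptions in both groups of dams.

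The log2 difference was 0.17 ± 0.12 for Chka, -0.35 ± 0.25 for Chkb, 0.05 ± 0.08 for Pcyt2, 0.04 ± 0.08 for Etnk1, 0.01 ± 0.23 for Cept1, 0.10 ± 0.11 for Chpt1 and -0.32 ± 0.34 for Pemt, with edgeR adjusted p from 0.498 to 0.986. Pemt was lower in the male in 5 of 6 litters and Chkb in 4 of 6. They turned to 0.17 and 0.05, in that order, without the Yam1-rich libraries. Of all genes 8 of 16102 passed (percent called 0.0497), 6 higher (0.0373) and 2 lower (0.0124) in males, none of them a member. That count was 1384 without stressed male 2, where still none of the 8 members passed and Pcyt1a had an adjusted p = 0.0821 with edgeR.

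Around the 8 genes, 71 further genes of choline and phospholipid handling in 9 lists were examined, of which 65 could be tested. None passed in females or between the sexes with edgeR's adjusted p. In females 0 of the 65 and between the sexes 6 of the 65 were under an unadjusted p of 0.05 with edgeR. Of all 16102 genes tested, 48 and 1929 were, in that order. In neither comparison was the share in the lists above that of all genes. In females 36 of 65 lay below 0 with a median of -0.01, against 51.5% and -0.00 over all genes. Between the sexes 21 of 65 lay below 0 with a median of 0.10, against 50.6% and -0.00 over all genes. In males 38 of 65 lay below 0 in stressed pups, with a median of -0.06, against 48.3% and 0.01 over all genes, given as a description.

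Choline enters cells through carriers that include members of the Slc44 family. Among the 6 genes listed as choline transporters, which also include Slc5a7, Slc44a4 was highest at 120.0 ± 23.0 FPKM (SD over 12 libraries). The general choline transporter Slc44a1 followed at 55.9 ± 5.39 FPKM and Slc44a3 at 11.7 ± 1.56 FPKM. What each of them carries in the ileum was not measured. In females 5 of the 6 transporters lay above 0 and 1 below, with a median log2 fold change of 0.14, and none passed.

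The last enzyme of the CDP-ethanolamine route, Selenoi, stood at 31.6 ± 3.00 FPKM. The paralogs Etnk2 and Pcyt1b were low, at 1.09 ± 0.340 and 0.685 ± 0.182 FPKM. Choline oxidation and methyl supply was led by Ahcy, which clears S-adenosylhomocysteine, at 49.1 ± 8.68 FPKM, and by Mat2a and Mat2b, the catalytic and regulatory parts of a methionine adenosyltransferase, at 37.9 ± 7.46 and 24.3 ± 3.76 FPKM. Of its 11 genes only 6 were high enough to be tested. The liver enzymes Bhmt and Mat1a, which were listed at or near 0, were among the 5 that were not.

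Among the enzymes that feed and remodel the products, those with the highest levels were the following, and none of the tested ones passed in females or between the sexes. Phosphatidylserine synthase Ptdss1 stood at 34.98 ± 3.94 FPKM, ahead of Pisd at 12.3 and Ptdss2 at 11.8 FPKM. In the supply of phosphatidic acid the lipid phosphate phosphatase Plpp2 stood at 78.3 ± 6.53 FPKM and the acyltransferases Agpat2 and Agpat1 at 53.5 ± 13.4 and 42.0 ± 8.48 FPKM. In females 12 of the 14 tested genes of phosphatidic acid and diacylglycerol supply lay below 0, with a median of -0.06, against 51.5% of all genes. The sign counts of single lists were not tested. Lpcat3, which puts polyunsaturated acyl chains on phosphatidylcholine in enterocytes, stood at 109 ± 13.8 FPKM, ahead of Lpgat1 at 23.3 and Mboat7 at 15.999 FPKM, with 6 of its 8 list members above 0 in females and a median of 0.06. In the breakdown list Lypla1 stood at 45.3 ± 10.4, Gde1 at 43.8 ± 6.39 and Lypla2 at 41.02 ± 5.04 FPKM, and 7 of 12 members lay below 0 in females.

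Beside them, Cdipt, the phosphatidylinositol synthase, stood at 112 ± 21.5 FPKM, and Cds1, which makes its substrate CDP-diacylglycerol, at 55.5 ± 10.4 FPKM, ahead of the cardiolipin synthase Crls1 at 18.6 FPKM. In the list of sphingomyelin genes the intestinal sphingomyelinase Enpp7 ran from 15.7 to 97.0 FPKM, with its highest value in control male 3, and Sgms2, a sphingomyelin synthase, stood at 22.6 ± 3.59 FPKM and Smpd2 at 17.3 FPKM. Control male 3, which stood apart in its intestinal markers, also had the highest values of Ahcy, Plpp2, Agpat2, Lpcat3, Lpgat1 and Lypla1, and the lowest of Slc44a4, at 76.2 FPKM, of Mat2a, at 25.1 FPKM, and of Crls1 and Sgms2.

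Among 9809 genes with a mean of at least 10 CPM, those whose ratio to Chka was steadiest over the 12 libraries were Rnf167, an E3 ubiquitin ligase, Gpx4, the glutathione peroxidase that reduces phospholipid hydroperoxides, Tmem69, Gde1, a glycerophosphodiesterase of the breakdown list, and Cldn5, an endothelial claudin. The SD of the log2 ratio to Chka was 0.15, 0.17, 0.17, 0.18 and 0.18, against 0.34 for the log2 level of Chka itself. The mean of Gpx4, for example, was 250.01 CPM in control males and 173 CPM in stressed males, and 184 and 195.4 CPM in control and stressed females. Among the other members Pcyt2 had the steadiest ratio, with an SD of 0.25. These genes share their libraries and the libraries' scaling with Chka, and the list follows from choosing the smallest of many values.

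**Figure D5:**
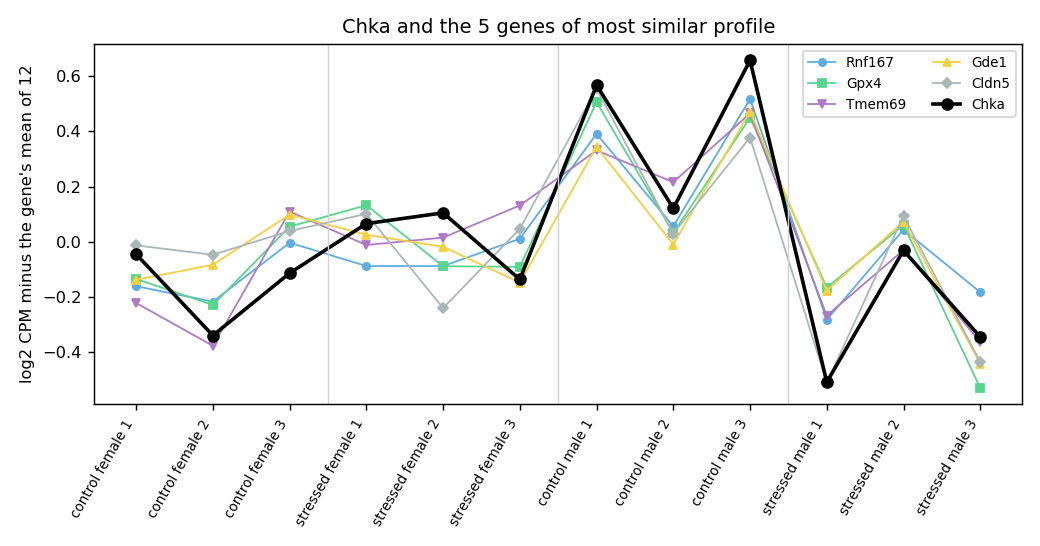
log2 CPM minus the mean of 12 libraries for Chka and the 5 genes with the steadiest ratio to it, 1 point per library in order of group. Control males 1 and 3 are the highest libraries in each of the 6 genes. Control male 1 is Yam1-rich and control male 3 is the male pup of control dam 3, whose pups stood apart.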

How the data were processed

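Ileal RNA of 12 pups was measured by RNA-seq. The deposited count table holds raw counts of reads per gene and the deposited FPKM table the same libraries scaled by gene length and library size; all 240813 nonzero FPKM equalled count over length and library total within 1e-06. A further deposited table holds the authors' log2 fold changes, their p-values and adjusted p-values, per the file headers; the sources used here do not name the tool behind them. The builds GRCm38 and mm10 and the tools STAR 2.5, TopHat, edgeR 3.16.5, DESeq2 and HTSeq 0.6.1 come from the submitters' processing notes; the sources used here do not state the annotation release. Per the labels the pups of a group came from separate dams.

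In R 4.3.3, edgeR 4.0.16 (quasi-likelihood test, TMM scaling, filterByExpr defaults, 16102 genes) fitted the 4 groups with 8 residual degrees of freedom, and 6 dams with littermates summed (16749 genes). Benjamini-Hochberg adjustment ran over all genes, with a threshold of 0.05. The SE of an edgeR value was derived from its test, as the absolute log2 fold change divided by the square root of the F statistic. CPM is scaled by TMM; log2 CPM used a prior count of 2. Alternatives were DESeq2 1.42.0, limma-voom (limma 3.58.1), limma on log2(FPKM + 1) and log2(FPKM + 0.1), median-ratio size factors, a filter at a mean of 1 CPM or none, replicate blocks, 1 sex alone, and libraries left out. Members and lists were chosen with earlier results of these data known. All members are named; of the other lists the 3 genes with the highest mean FPKM and any that passed, and beside Chka the 5 genes of steadiest ratio, clone names left out. Some values of other genes are named as checks of libraries or overlaps, chosen after they were seen. Of the listed symbols 6 were matched by gene identifier. The fits were tested on simulated data.

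By the labels littermates share a dam and pair the sexes. The correlation of their deviations from the group means ran from -0.362 to 0.545, so the pairing rests on the labels. Stressed and control dams share numbers only. No library was a copy of another: over all 66 pairs the chi-square of the counts was at least 5.51 per degree of freedom.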

Additional observations from a re-analysis of the deposited data

Results flagged for a closer look

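Values that stood apart among the 6 libraries of a sex, by a gap to the nearest value above 0.625 of the range, were found in 4 of 16 sets of 6. Chance gives about 1 in 20 for values of a normal spread, and over all genes tested 9.47% of such sets had one. The 4 sets are not independent, since 2 of them concern littermates. Cept1 was high in both pups of control dam 3, at 78.77 CPM in the male and 58.5 CPM in the female. Etnk1 was lowest in control male 1, at 98.95 CPM. Pemt was lowest among females in stressed female 2, at 0.7929 CPM, with 18 reads.

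Chka and Pcyt2 were noted because the male pup lay above its sister in all 3 control litters and below it in all 3 stressed litters. Over all genes tested 0.72% had this pattern and 0.77% the opposite one. The pattern contains the male comparison that formed the set and is given as a description. The stress effect of males minus that of females was -0.9228 on the log2 scale for Chka and -0.4364 for Pcyt2. No gene of 16102 passed the edgeR test of this difference, and at an unadjusted p under 0.05 there were 346, with 395 in DESeq2 and 138 to 2138 when each library was left out.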

How the results depend on the processing

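Over 304 refits of the 16 tested values of members (8 in females, 8 between the sexes), 0 gave an adjusted p below the threshold. The direction turned in 24 of these refits, each time of a value that had not passed. Between the sexes Cept1 (0.01) became -0.0493 with limma-voom, -0.0061 with no filter, -0.0051 with a mean of at least 1 CPM, -0.10 and -0.11 with limma on log2(FPKM + 1) and log2(FPKM + 0.1), -0.0449 with the littermate block and -0.12 without both pups of control dam 3. With limma on these log2 FPKM scales Etnk1 became -0.0268 and -0.0284 and Pcyt2 -0.0164 and -0.0165 between the sexes, and Chpt1 0.0041 in both for females. Without the 3 Yam1-rich libraries Chkb became 0.0457 and Pemt 0.17 between the sexes. Without both pups of control dam 3 Cept1 became 0.0457 in females. Leaving out each library gave -0.25 to 0.16 for Cept1 between the sexes, and in females -0.37 to 0.0495 for Cept1, -0.15 to 0.38 for Chkb and -0.39 to 0.0628 for Pemt.

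The count of genes that differed between the sexes (8) was 18 with DESeq2, 5 without the Yam1-rich libraries and 8 to 1384 when each library was left out; the cause was not tested. In males the count ran from 0 to 1 when each library was left out. The littermate block gave 6 genes between the sexes and changed no call of a member; Pcyt1a then had a log2 difference of 0.46 and an adjusted p = 0.459 with edgeR. With the dam number as a replicate block, which pairs unrelated dams, 0 genes passed in females, in males and over dams.

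In males Chka stayed between -0.92 and -0.64 when each library was left out and Pcyt2 between -0.29 and -0.25. With GENCODE M21 exonic bases as lengths the mean level per length moved by more than 1 SD for every member but Cept1. Pemt had 9 to 46 reads per library, so that counting error alone limits it.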
